A study of Mus musculus with 10 samples.

Results

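The Igkv4 segments on the far side of the mouse immunoglobulin kappa locus are variable (V) gene segments of 1 family that lie in the stretch numbered 68 to 91, away from the joining (J) segments. The 10 listed segments, in the spelling of the deposited table, were IGKV4-68, IGKV4-69, IGKV4-70, IGKV4-72, IGKV4-73, IGKV4-74, IGKV4-78, IGKV4-80, IGKV4-86 and IGKV4-91. They are written Igkv4-68 and so on below, after the genome annotation, and their lines were taken by the V call alone, with alleles merged. Of these 10 segments, 9 had counts among the 114 V segments of the deposited repertoire table. Igkv4-68 had 0 of 161780 counts, which allows a share of up to 0.00185% (3 counts). The 9 segments held 9373 counts, 5.79% of all counts, in 1698 distinct clonotypes. Joins with the same V, J and CDR3 nucleotide sequence counted as 1 clonotype, CDR3 being the stretch where V and J meet.

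The data are kappa (Igk) transcripts of small pre-B cells that were sorted by flow cytometry from mouse bone marrow. There were 5 samples labelled WT and 5 labelled rsCBE, from C57Bl6 mice of 6 to 12 weeks of age. The design text writes rsCBE with a delta, the labels do not spell it out, and another mutant that the text names was not analysed here. Whether replicates came from separate mice is not stated, so p-values measure the spread between these samples, which may be technical. The table held no other genes, so the sorted cell type could not be checked against its markers.

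In pre-B cells, the RAG recombinase joins 1 V segment to 1 J segment to make a kappa gene. A V segment that points against the J segments is joined by inversion of the DNA between them, which keeps the segments in between on the chromosome. J1 is the J segment nearest to the V segments and J5 the farthest, and J3 is not functional. A cell whose first join fails or makes a self-reactive receptor can rearrange again, with a V segment farther out and a J segment farther downstream, which is called receptor editing. The series' title names receptor editing and chromatin folding by the architectural protein CTCF, and the comparison made here is of V and J use between the genotypes.

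In the GENCODE M21 annotation of mouse build GRCm38, all 10 segments are on the reverse strand of chromosome 6, and the J segments are on the forward strand. The 10 genes spanned 537 kb. Igkv4-68 (chr6:69304834-69305405) was the nearest to J1, at 1417 kb, and Igkv4-91 (chr6:68768555-68769103) the farthest, at 1953 kb. J1 starts at 70722562. Each of the 10 is annotated with 2 exons, and 9 are annotated as functional V genes. Igkv4-73 (chr6:69197583-69198116, 1524 kb from J1) is annotated as a V pseudogene. The most used member, Igkv4-86, is at chr6:68910411-68910973.

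The germline V segments differ where they enter CDR3, and these ends are shown because CDR3 lengths are set beside them below. Each sequence is the 3′ end of the GENCODE M21 transcript after the conserved cysteine codon, and capitals mark bases that differ from Igkv4-72 at the same position from the 5′ end.
Igkv4-68: cagcagtggagtagtaacccaccca
Igkv4-69: caTcagCggagtagtTaccca
Igkv4-70: caTcagCggagtagtTaccca
Igkv4-72: cagcagtggagtagtaacccaccca
Igkv4-73: cagcagtggagtagtaacccaccca
Igkv4-74: caCcagtATCAtCgtTCcccaccca
Igkv4-78: cagcagtACagtGgtTacccaTcca
Igkv4-80: caTcagtggagtagtTaTcca
Igkv4-86: cagcagtggaAtTAtCCTcTTA
Igkv4-91: cagcagGgTagtagtaTAccacGca

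The end came in 3 lengths. Igkv4-69, Igkv4-70 and Igkv4-80 bring 21 bases into CDR3, Igkv4-86 brings 22, and the other segments with counts bring 25. Igkv4-68, Igkv4-72 and Igkv4-73 have the same end, and so do Igkv4-69 and Igkv4-70. On the J side, the germline bases before the conserved phenylalanine codon are gtggacg in J1, tgtacacg in J2, attcacg in J4 and gctcacg in J5. Over the aligned transcripts, pairs of the 10 segments were 85.6 to 95.7% identical (median 92.0%, 45 pairs). The closest Igkv4 relative of Igkv4-70 was Igkv4-59, a segment nearer to the J segments, with 9 mismatches in 348 aligned bases. How reads that match several V segments were resolved is not given in the sources used here, so counts of single segments are uncertain to that extent.

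Total counts per sample ran from 3109 (WT replicate 4) to 24083, and counts of the 9 segments from 178 (WT replicate 4) to 1418. Replicates 1 and 2 of each genotype were deposited as 1 library and replicates 3 to 5 as 2 parts that were added here. They are called 1-library and 2-part samples. Within a 2-part sample, the parts differed by 0.121 to 0.854 percentage points in the summed share of the 9 segments. Between the parts of 1 sample, the J5 share of the 9 differed by up to 9.32 points, the J1 share by up to 4.44 and the in-frame share by up to 6.73. A count may be a read pair or a molecule, so intervals that rest on counts cover counting error only.

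The summed share of the 9 segments was close in both genotypes on average. It was 5.94 ± 0.950% of counts in WT and 5.89 ± 0.441% in rsCBE (mean ± SD, n = 5 each). In WT replicates 1 to 5 it was 4.88, 5.42, 7.36, 5.73 and 6.32%. The rsCBE values were 5.34, 6.09, 5.52, 6.15 and 6.37%. The groups overlapped, and the highest and the lowest samples were both WT. The rsCBE mean was 0.561 points higher among 1-library samples and 0.455 points lower among 2-part samples (rsCBE minus WT, -0.455). No test was made on the sum.

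Igkv4-86 was the most used of the 9, at 1.41 ± 0.197% over the 10 samples, and it ranked 24th among the 114 V segments. It was followed by Igkv4-73 (0.999 ± 0.293%), Igkv4-69 (0.857 ± 0.292%), Igkv4-72 (0.673 ± 0.255%), Igkv4-91 (0.632 ± 0.157%) and Igkv4-80 (0.551 ± 0.270%). The least used with counts were Igkv4-78 (0.397 ± 0.221%), Igkv4-74 (0.219 ± 0.147%) and Igkv4-70 (0.183 ± 0.121%). Igkv4-86 exceeded Igkv4-73 in 10 of 10 samples, by more than 1 SD of the within-sample difference (0.407 ± 0.272 points). All 7 other neighbouring pairs in this order differed by less than 1 SD, and each held its order in 7 or 8 of the 10 samples.

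**Figure D1:**
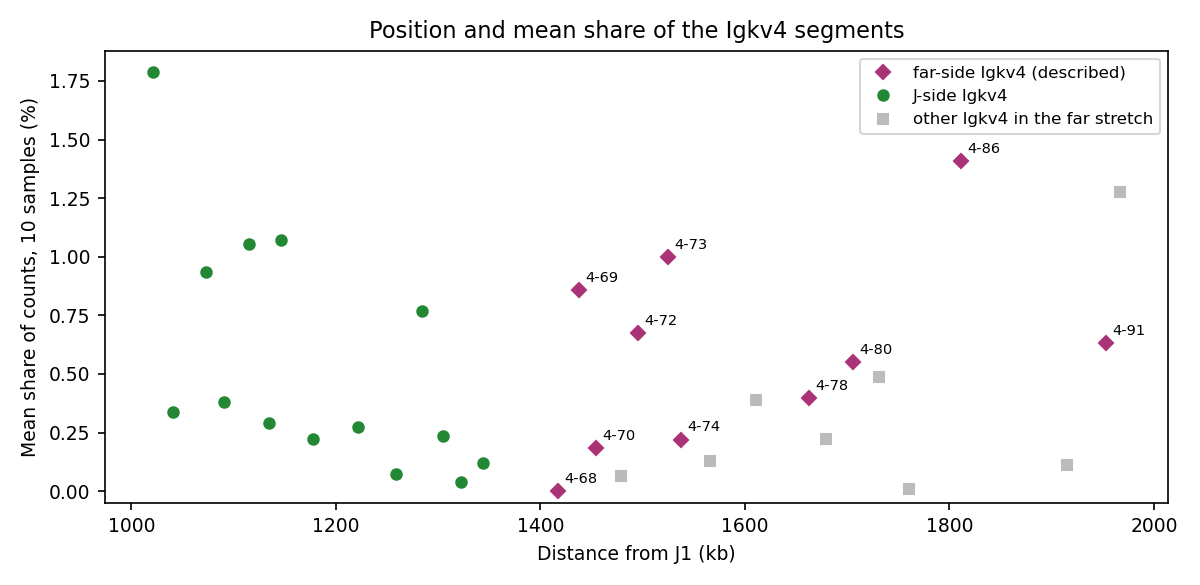
Mean share of counts over the 10 samples (vertical axis, %) of each Igkv4 segment against its distance from J1 (horizontal axis, kb). Diamonds are the 10 far-side segments, from Igkv4-68 with no counts at 1417 kb to Igkv4-91 at 1953 kb, with Igkv4-86 the highest of them at 1.41%; circles are Igkv4 segments nearer to the J segments and squares are the other Igkv4 segments of the far stretch.

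No single segment passed the test between genotypes. With edgeR's quasi-likelihood test over all V segments and Benjamini-Hochberg adjustment, 0 of the 9 segments were called at an adjusted p of 0.05, against 0.0% of the 98 V segments tested. Before adjustment, 2 of the 9 had a p under 0.05, against 7.14% of the 98. These were Igkv4-73 and Igkv4-80, in opposite directions. DESeq2 also called 0 and had the same number below 0.05 unadjusted. The median log2 fold change of the 9 was -0.07, and that of all V segments tested was -0.05.

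Igkv4-73, the segment annotated as a pseudogene, was the only one of the 9 whose samples did not overlap between genotypes. Its share in WT replicates 1 to 5 was 0.488, 0.954, 1.02, 0.611 and 0.862%. In rsCBE replicates 1 to 5 it was 1.06, 1.48, 1.09, 1.27 and 1.16%. Every rsCBE sample was above every WT sample, which was so for 3.06% of the 98 V segments tested. The means were 0.787 ± 0.228% and 1.21 ± 0.169%, a log2 fold change of 0.61 (SE 0.23), with an edgeR p of 0.0196 (adjusted 0.509). The log2 fold change was 0.82 in 1-library samples and 0.45 in 2-part samples. With the deposition layout in the model the adjusted p of Igkv4-73 was 0.130, and edgeR again called 0 of the 9 segments, against 2.04% of the 98.

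Igkv4-80 lay the other way. Its share in WT replicates 1 to 5 was 0.505, 0.411, 1.19, 0.836 and 0.546%. The rsCBE samples had 0.307, 0.343, 0.531, 0.351 and 0.489%. The groups overlapped, and WT replicates 3 and 4 stood above all the other samples. The log2 fold change was -0.78 (SE 0.33), with an edgeR p of 0.0353 (adjusted 0.509). It was -0.50 in 1-library samples and -0.91 in 2-part samples. With the deposition layout in the model the adjusted p of Igkv4-80 was 0.0863.

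Igkv4-86 had means of 1.35 ± 0.197% in WT and 1.46 ± 0.202% in rsCBE, and Igkv4-69 had the same mean in both, 0.857%. Igkv4-91 had a mean of 0.717 ± 0.132% in WT and 0.546 ± 0.140% in rsCBE, with a log2 fold change of -0.40 (SE 0.25, edgeR adjusted p 0.958). The remaining 4 had log2 fold changes from -0.23 (Igkv4-70) to -0.05 (Igkv4-78), each smaller than its SE. In WT replicate 4, Igkv4-72 was at 0.0965% (3 counts) and Igkv4-74 had no count, which at 3109 counts allows up to 0.0965%. Among the other Igkv4 segments tested, 0 of 13 nearer to the J segments and 0 of 6 in the far stretch were called.

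**Figure D2:**
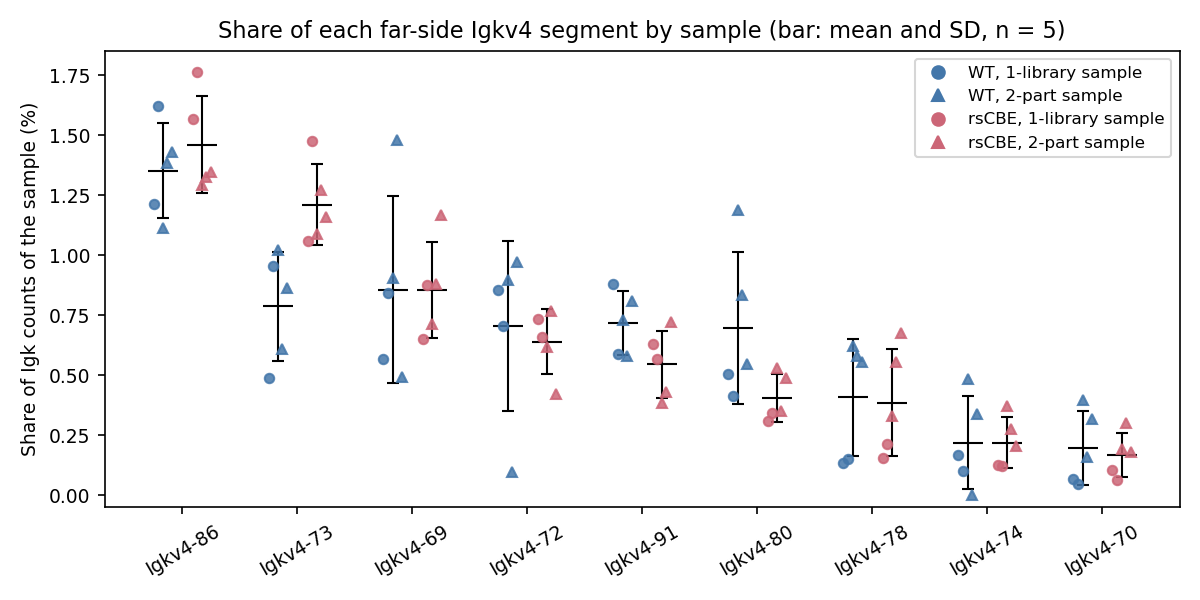
Share of the Igk counts of a sample (vertical axis, %) held by each of the 9 far-side Igkv4 segments with counts, ordered by mean share; points are samples, circles 1-library and triangles 2-part samples, blue WT and red rsCBE, and bars give the mean and SD of 5 samples. For Igkv4-73 the rsCBE samples, from 1.06 to 1.48%, are all above the WT samples, and for Igkv4-70 and Igkv4-78 the circles lie at the bottom in both genotypes.

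The layout of the deposition moved with several segments more than the genotype did. In a model with genotype, edgeR called 4 of the 9 as different between 2-part and 1-library samples, against 57.1% of the 98 V segments, and all 4 were higher in 2-part samples, against 30.6%. Igkv4-70 rose by 1.89 (SE 0.35, adjusted p 2.2e-04), Igkv4-78 by 1.74 (SE 0.27, adjusted p 4.1e-05), Igkv4-74 by 1.24 (SE 0.40, adjusted p 0.0129) and Igkv4-80 by 0.70 (SE 0.25, adjusted p 0.0192), all on the log2 scale and by edgeR's test. The share of Igkv4-78 was 0.163 ± 0.0349% in the 4 1-library samples and 0.553 ± 0.120% in the 6 2-part samples. The call of Igkv4-80 was lost without WT replicate 2 (log2 fold change 0.60, adjusted p 0.0801) and without WT replicate 3 (0.51, adjusted p 0.0796). With each clonotype counted once, edgeR called 4 of the 9, against 47 of 87 V segments, and 3 of the 4 were higher in 2-part samples. Igkv4-80 then fell to 0.20 (edgeR adjusted p 0.343), and Igkv4-86 was called lower in 2-part samples (edgeR adjusted p 0.0485). Igkv4-70 and Igkv4-78 fell to 1.12 and 0.83. Both genotypes were in both layouts, and what differed between the layouts was not tested.

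The J segments joined by the 9 segments differed between genotypes in the same direction as in most V segments. J5 made up 43.0 ± 7.26% of their counts in WT and 56.7 ± 2.93% in rsCBE. In WT replicates 1 to 5 the J5 share was 37.8, 42.6, 43.1, 36.5 and 54.9%. In rsCBE replicates 1 to 5 it was 56.9, 60.2, 56.5, 58.0 and 52.2%. The groups overlapped through WT replicate 5 and rsCBE replicate 5 alone. The difference was 13.8 points (95% interval 5.36 to 21.1, two-sided exact permutation test, p = 0.0159, 0.0635 adjusted over J1, J2, J4 and J5), so it did not pass after adjustment. Leaving out WT replicate 5 gave 16.7 points and an exact adjusted p of 0.0317, and leaving out WT replicate 2 gave 13.7 points and 0.0476. It was 18.3 points within 1-library samples and 10.7 within 2-part samples.

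J1 and J2 were lower in rsCBE on average. The J2 share was 24.2 ± 6.15% in WT and 16.3 ± 3.97% in rsCBE, a difference of -7.84 points (95% interval -15.8 to -0.745, exact p = 0.0397, adjusted 0.0794). The J1 share was 17.7 ± 3.52% and 13.3 ± 2.75%, a difference of -4.38 points (95% interval -9.20 to 0.594, exact p = 0.0635, adjusted 0.0847). Without WT replicate 2 the J2 difference was -9.18 points (exact adjusted p 0.0476), and without WT replicate 5 the J1 difference was -5.82 points (exact adjusted p 0.0317). With each clonotype counted once the J1 difference was smaller, at -1.72 points. In alternatives chosen after the data were seen, it was -2.21 without Igkv4-80 and -0.775 with each segment weighted equally. J1 differed by -8.11 points within 1-library samples and by -1.89 within 2-part samples. The J4 share was 15.1 ± 3.84% and 13.6 ± 2.54% (exact p = 0.476). J3 had at most 0.0901% of the counts in any sample.

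The J5 difference between genotypes was not shown to be larger or smaller in the 9 segments than in the other V segments. Those had J5 shares of 27.7 ± 4.46% in WT and 38.1 ± 1.11% in rsCBE. The J5 difference between genotypes was 3.41 points larger in the 9 segments than in all the others (95% interval -5.40 to 12.4, exact permutation p = 0.5). It was 0.0340 points without WT replicate 4 and 6.16 without WT replicate 5. The J1 share differed by -4.38 points in the 9 segments and by -7.02 in the others (32.1 ± 2.85% in WT and 25.1 ± 2.38% in rsCBE), so the J1 difference was 2.64 points smaller in the 9 (95% interval of the contrast -1.91 to 8.24, exact p = 0.341). Without WT replicate 5 this J1 contrast was 0.472, and it was 0.517 within 1-library samples and 4.06 within 2-part samples. With each clonotype counted once it was 3.86 and passed (exact p = 0.0159). In alternatives chosen after the data were seen it also passed, at 6.25 with each segment weighted equally (exact p = 0.0397) and at 4.81 without Igkv4-80 (exact p = 0.0476). Segment by segment, the J5 share of summed counts was higher in rsCBE in 9 of 9 segments, against 96.2% of 80 other V segments with at least 100 counts in each genotype. The J1 share was lower in 7 of 9, against 87.5%.

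In level, the 9 segments used J5 more and J1 less than the sum of all other V segments. Their J5 share exceeded that of all other V segments in 10 of 10 samples, by 17.0 points on average, and their J1 share was lower in 10 of 10. The 8 other Igkv4 segments numbered 68 and above had 4120 counts. Over the 10 samples they had J1 at 14.5 ± 5.98% and J5 at 43.6 ± 8.60%, beside 15.5 ± 3.77% and 49.9 ± 8.94% in the 9, and this difference was not tested. Igkv4-92 held 2101 of these counts, with J1 in 1.38% and J5 in 46.3%, and the 7 without it had J1 in 24.6% and J5 in 44.7% of 2019 summed counts. Against the 14 Igkv4 segments numbered below 68, the difference was smaller. The J5 share was 7.23 points higher (95% interval 1.80 to 11.9, higher in 9 of 10 samples, exact sign-flip test, adjusted p = 0.0254) and the J1 share 4.80 points lower (-4.80 points, 95% interval -7.85 to -1.99, 9 of 10 samples, exact adjusted p = 0.0117). Single segments were left out after the data were seen, with opposite effects. Leaving out Igkv4-80 enlarged the J5 difference to 9.97 points (exact adjusted p 0.0078) and the J1 difference to -9.06 (0.0039). Leaving out Igkv4-73 reduced the J5 difference to 3.61 points (adjusted p of the exact test 0.0990) and the J1 difference to -3.12 (0.0703). The J5 call was also lost without WT replicate 2 (6.92 points), rsCBE replicate 2 (6.18) or rsCBE replicate 4 (6.83), with an exact adjusted p of 0.0508 each time. With each clonotype counted once, J5 was 2.13 points higher (exact adjusted p 0.658) and the J1 difference was -3.77 (0.0820). With in-frame joins only, the values were 4.83 for J5 (exact adjusted p 0.242) and -1.18 for J1 (0.609), so both calls were lost either way. They were also lost with each segment weighted equally, at 3.94 (exact adjusted p 0.289) and -2.28 (0.305).

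**Figure D3:**
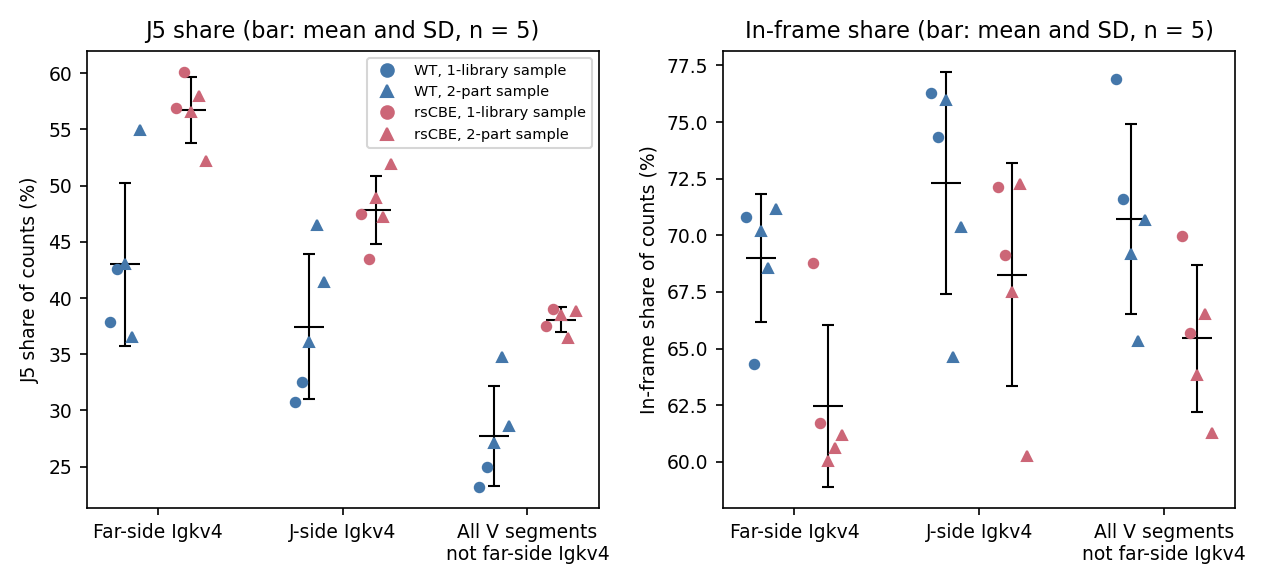
J5 share (left) and in-frame share (right) of counts (vertical axes, %) in each sample for the 9 far-side Igkv4 segments, the 14 Igkv4 segments nearer to the J segments, and all V segments outside the far-side set; circles are 1-library and triangles 2-part samples, and bars give the mean and SD of 5 samples. The J5 share of the far-side segments is 43.0% in WT and 56.7% in rsCBE on average, with only WT replicate 5 inside the rsCBE range, and their in-frame share is 69.0% and 62.5%.

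The sum hides large differences between members in J choice. With the counts of all samples summed, and among the 89 V segments with at least 200 counts, Igkv4-73 had the highest J5 share, with 72.0% of 1668 counts. Igkv4-80 joined J1 in 57.3% of 801 counts, the fifth highest J1 share, and had the lowest J4 share of the 89, 6.87%. Igkv4-91 had the lowest J1 share of the 89, with 1.38% of 1018 counts, and the highest J4 share, 33.5%. These sums hold more rsCBE than WT counts for Igkv4-73, so ranks were also taken within each genotype, over the 89 segments with at least 100 counts in both. Igkv4-73 was the third highest in J5 in WT (63.7%) and the highest in rsCBE (76.1%). Igkv4-80 was the fifth and the third highest in J1, and the fourth and the third lowest in J4. Igkv4-91 was the lowest in J1 in WT and the fourth lowest in rsCBE, and the second and the first in J4. The medians over the 89 segments were 22.5% for J1, 14.3% for J4 and 37.1% for J5. The 6 other segments had J5 shares from 46.1% (Igkv4-72) to 56.7% (Igkv4-69) and J1 shares from 10.5% (Igkv4-86) to 21.7% (Igkv4-70).

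These preferences were seen in single samples too. Igkv4-80 joined J1 in 41.9 to 66.0% of its counts in all 10 samples, while the 9 segments summed did so in 10.2 to 20.8%. Igkv4-91 had 0 J1 counts in 5 of 10 samples and at most 7, in WT replicate 3. The J5 share of Igkv4-73 in WT replicates 1 to 5 was 57.7, 64.2, 62.4, 21.1 and 83.5%, where the lowest, in WT replicate 4, rests on 19 counts. The corresponding rsCBE values were 85.5, 75.3, 73.4, 75.7 and 65.2%. The groups overlapped through WT replicate 5, and the 4 other WT samples were below all rsCBE samples.

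Igkv4-72 and Igkv4-73 have the same germline end in CDR3 but differed in J use. In the 9 samples with at least 10 counts of each, the J5 share of Igkv4-73 was higher than that of Igkv4-72 in 9 of 9, by 25.5 ± 7.39 points (mean ± SD). Its J1 share was lower in 9 of 9, with means of 6.04% and 19.1%, and its J2 share was lower in 9 of 9 (11.7% and 22.7%). The in-frame share was also lower in 9 of 9, with means of 51.8 ± 5.56% for Igkv4-73 and 71.2 ± 5.77% for Igkv4-72. The transcripts of these 2 segments differ at 24 of 352 aligned bases. For Igkv4-69 and Igkv4-70, which also share an end, the J5 share was higher in Igkv4-69 in 6 of 9 samples, by 9.24 ± 12.0 points, which is within the spread. Both pairs were compared after their values were seen, so no test was made.

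Of the V-J pairs, 26 of the 270 tested belonged to the 9 segments, and edgeR called 0 of them between genotypes, against 0.0% of all pairs. With an unadjusted p under 0.05 there was 1, against 9.26%, and DESeq2 called 0. With the layout in the model edgeR also called 0, against 2.59%. The 3 pairs with the smallest p were Igkv4-73 with J5, Igkv4-80 with J1 and Igkv4-91 with J4. Igkv4-73 with J5 was at 0.281, 0.612, 0.637, 0.129 and 0.720% of counts in WT and at 0.905, 1.11, 0.799, 0.963 and 0.755% in rsCBE. Every rsCBE sample was above every WT sample, which was so for 2.59% of the 270 pairs, and the log2 fold change was 0.89 (edgeR adjusted p 0.459). In 1-library samples alone, an alternative added after seeing the data, this pair was called (log2 fold change 1.18, edgeR adjusted p 0.0221), against 12.3% of 285 pairs. In 2-part samples alone it was not called (log2 fold change 0.67, edgeR adjusted p 0.784).

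Igkv4-80 with J1 was at 0.411 ± 0.209% in WT and 0.229 ± 0.0796% in rsCBE, a log2 fold change of -0.83 (edgeR adjusted p 0.503). Igkv4-91 with J4 was at 0.289 ± 0.0876% and 0.147 ± 0.0931%, a log2 fold change of -0.91 (edgeR adjusted p 0.503). In both pairs the groups overlapped. The log2 fold change of Igkv4-91 with J4 was -0.25 within 1-library samples (edgeR adjusted p 0.687) and -1.69 within 2-part samples (0.588). Igkv4-80 is the member with the highest J1 share of its own counts and Igkv4-91 the one with the highest J4 share of its own counts, and neither of these joins passed the test.

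**Figure D4:**
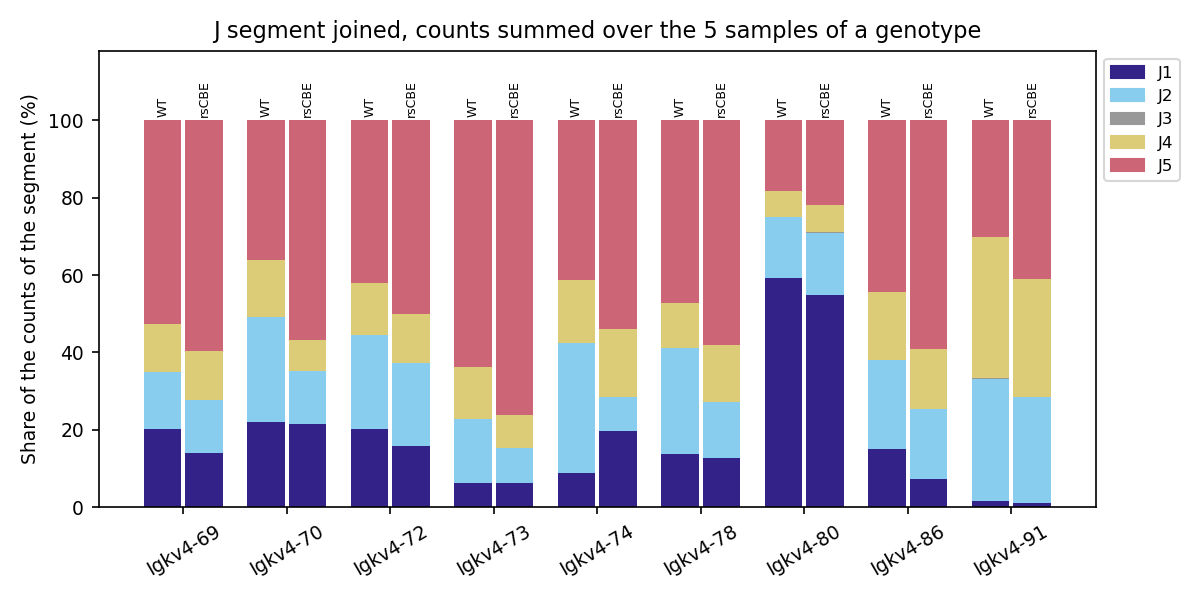
Share of the counts of each far-side Igkv4 segment (vertical axis, %) joined to J1 to J5, in stacked bars, with counts summed over the 5 samples of a genotype (left bar WT, right bar rsCBE); segments are ordered from nearest to farthest from J1. The J5 part (red, top) is larger in rsCBE in 9 of 9 segments, Igkv4-80 is mostly J1 (57.3% over both genotypes) and Igkv4-91 has almost no J1 (1.38%).

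A join was counted as in-frame where its CDR3 length was a multiple of 3 and no codon in it was a stop. The in-frame share of counts was 69.0 ± 2.81% in WT and 62.5 ± 3.59% in rsCBE. In WT replicates 1 to 5 it was 70.8, 64.3, 70.2, 68.5 and 71.2%. In rsCBE replicates 1 to 5 it was 68.8, 61.7, 60.0, 60.6 and 61.2%. The groups overlapped through rsCBE replicate 1 alone, which was above WT replicates 2 and 4. The difference was -6.54 points (95% interval -10.4 to -1.76, exact permutation p = 0.0238). With replicate numbers as pairs the exact p was 0.0625, the smallest that 5 pairs can give. The 2 parts of 1 sample differed by 0.329 to 6.73 points. Those are gaps between single parts, which is not the same measure as a difference between means of 5 samples.

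The in-frame difference was -2.31 points within 1-library samples and -9.36 within 2-part samples. Without rsCBE replicate 3 it was -5.93 points with an exact p of 0.0556. The call was also lost with each clonotype counted once (-9.06, exact p 0.0714), without clonotypes of 1 count (-6.23, exact p 0.0794) and without Igkv4-73 (-5.34, exact p 0.0556). It was not shown to differ from that of the other V segments, whose in-frame share was 70.7 ± 4.19% in WT and 65.4 ± 3.23% in rsCBE (difference of differences -1.26, 95% interval -6.92 to 4.71, exact p = 0.619). This contrast was -2.65 without WT replicate 2 and -0.0288 without WT replicate 4. Its direction differed between layouts, with 4.11 within 1-library samples and -4.84 within 2-part samples. By segment, the in-frame share of summed counts was lower in rsCBE in 8 of 9, against 86.2% of 80 other V segments. Within the 9 segments it was lower in rsCBE on average for joins to each of J1 (70.4 and 65.4%), J2 (71.1 and 61.9%), J4 (72.6 and 66.9%) and J5 (65.2 and 60.4%).

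The pseudogene Igkv4-73 had the lowest in-frame share of the 9 in summed counts. It was 52.7% of WT and 52.8% of rsCBE counts, and 52.8% of all its 1668 counts, the 11th lowest of the 89 V segments. As a mean over samples it was 59.9 ± 17.1% in WT (47.5 to 89.5%, the highest in WT replicate 4 with 19 counts) and 51.3 ± 6.39% in rsCBE (44.8 to 58.8%), and the groups overlapped. Of its 521 clonotypes summed over samples, 38.4% were in-frame, the fifth lowest of the 89. The 8 other segments ranged from 61.7% of counts (Igkv4-69) to 73.8% (Igkv4-74).

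Igkv4-91 had the largest gap in frame between genotypes among the 9, with 80.7% of 519 WT counts and 63.5% of 499 rsCBE counts in-frame. Its in-frame share in WT replicates 1 to 5 was 83.5, 67.5, 84.2, 100% (of 18 counts) and 86.5%. In the rsCBE samples it was 77.6, 62.9, 60.0, 59.0 and 45.2%. The groups overlapped through WT replicate 2 and rsCBE replicate 1. Igkv4-80 had 72.2% of its summed counts in-frame in WT and 59.8% in rsCBE. Both were picked after their values were seen and were not tested singly. The in-frame share of Igkv4-91 thus ran from 45.2 to 100% over the 10 samples.

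Igkv4-80 also stood out for stop codons in joins of a length that is a multiple of 3. These held 6.99% of its counts (56 of 801), while in each of the 8 other segments they held at most 1.59%. The most frequent of them, with 28 counts in 8 of the 10 samples, joined J5 and is shown with its stop codon in capitals.
Igkv4-80 with J5: catcagtggagtagtTAGctcacg

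The joins carried few bases that neither germline end provides. Counted from the longest match to the V end and then to the J end, 81.2% of the counts of the 9 segments had no inserted base. By sample the share was 80.1 ± 4.19% in WT and 82.6 ± 1.42% in rsCBE. The full germline V end was kept in 24.1% of counts. The most frequent clonotypes show how the ends meet. For each segment, the clonotype with the most counts over the 10 samples is given below, with the bases that match the V end in lower case and the rest in capitals.
Igkv4-69 with J5: catcagcggagtagttacccCACG
Igkv4-70 with J1: catcagcggagtagttacccaTGGACG
Igkv4-72 with J5: cagcagtggagtagtaacccGCTCACG
Igkv4-73 with J5: cagcagtggagtagtaacccGCTCACG
Igkv4-74 with J5: caccagtatcatcgttccccGCTCACG
Igkv4-78 with J5: cagcagtacagtggttacccGCTCACG
Igkv4-80 with J1: catcagtggagtagttatcGGACG
Igkv4-86 with J5: cagcagtggaattatcctcttaTCACG
Igkv4-91 with J4: cagcagggtagtagtataccaTTCACG

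All 9 of these are in-frame, and none holds an inserted base. In Igkv4-72, Igkv4-73, Igkv4-74 and Igkv4-78, with 25 germline bases, the join kept 20 of them and the whole of the J5 end. Igkv4-72 and Igkv4-73 share 1 CDR3 nucleotide sequence here, which held 16.0% of the counts of Igkv4-72 (186 of 1164) and 16.2% of those of Igkv4-73 (271 of 1668). For Igkv4-80, the clonotype held 131 counts in 9 samples, 16.4% of the segment. For Igkv4-86 it held 329 counts and was found in 10 of 10 samples, with 114 counts in WT and 215 in rsCBE. Igkv4-91 with J4 held 144 counts in 9 samples, 68 in WT and 76 in rsCBE.

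The in-frame CDR3 sequence found in most samples was the same for Igkv4-69, Igkv4-72, Igkv4-74, Igkv4-80 and Igkv4-86, where joins to any J segment are merged. For the other segments it was another sequence.
Igkv4-70: catcagcggagtagttacccaTTCACG
Igkv4-73: cagcagtggagtagtaacccacTCACG
Igkv4-78: cagcagtacagtggttacccGTACACG
Igkv4-91: cagcagggtagtagtataccacgcaCG

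The Igkv4-91 sequence kept all 25 germline V bases and was called with J2, J4 and J5, in 10 of 10 samples and with 185 counts, 115 in WT and 70 in rsCBE. On the strand shown, the bases cacg occur in its germline end, in 0 of the 9 other listed V ends, and at the close of the germline ends of J2, J4 and J5, but not of J1. Where J ends share their last bases, the J call of such a join rests on bases downstream of CDR3. The Igkv4-73 sequence was found in 10 of 10 samples with 170 counts, and that of Igkv4-78 in 10 of 10 with 42.

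A small number of in-frame clonotypes recurred across samples and held most in-frame counts. Of 844 distinct in-frame clonotypes of the 9 segments, 90 were found in at least 5 samples and held 75.1% of the in-frame counts, and 8 were found in all 10. Of 854 that were not in-frame, 72 were found in at least 5 samples with 48.0% of the counts, and 0 in all 10. Among the Igkv4 segments numbered below 68, the in-frame clonotypes found in at least 5 samples held 76.4% of the in-frame counts, and those not in-frame held 33.4% of theirs. Over all V segments outside the set these values were 81.8% and 56.0%, both above those of the 9. By number of clonotypes the order was the reverse. In the 9 segments, 10.7% of in-frame clonotypes and 8.43% of the others were found in at least 5 samples, against 8.45% and 7.75% outside the set.

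CDR3 length followed the length of the germline V end. In-frame joins of the 5 segments with 25 germline bases had 27 nucleotides in 83.9% of counts and 24 or fewer in 5.78%, with a mean of 27.2. Joins of the 3 segments with 21 bases had 27 nucleotides in 50.6% and 24 or fewer in 48.6%, with a mean of 25.2. Igkv4-86, with 22, had 27 nucleotides in 69.7% and 24 in 25.1%. Igkv4-80 was the only one of the 9 with more joins of 24 nucleotides (41.9% of all its counts) than of 27 (24.3%). In each of the 10 samples, the mean of the 21-base segments was below that of the 25-base segments.

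**Figure D5:**
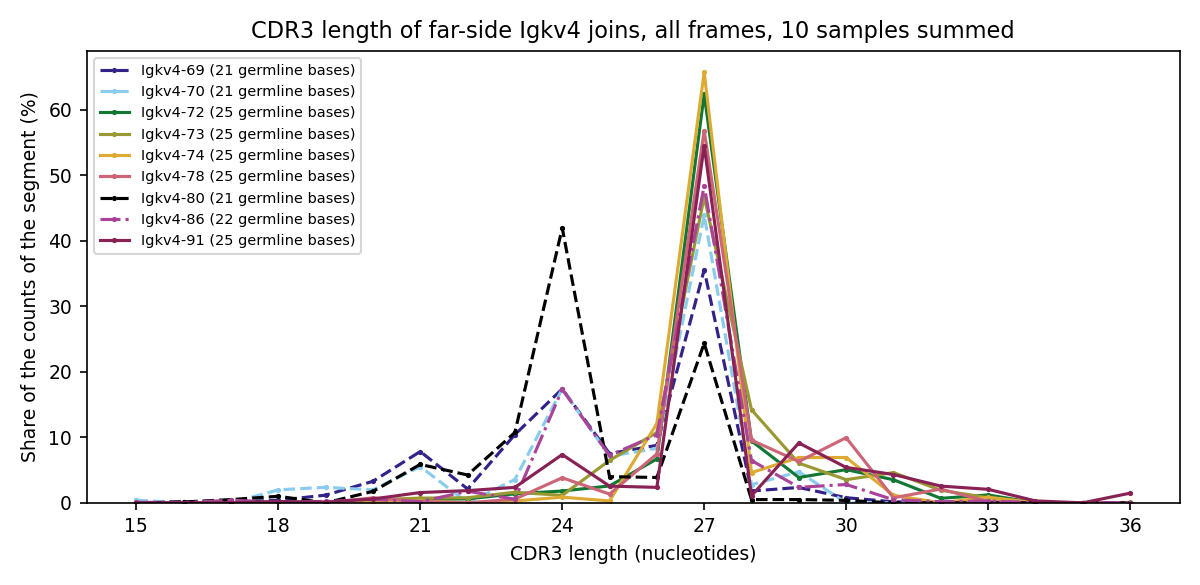
Share of the counts of each far-side Igkv4 segment (vertical axis, %) by CDR3 length in nucleotides (horizontal axis), all reading frames, 10 samples summed; solid lines are segments with 25 germline V bases in CDR3, the dash-dot line Igkv4-86 with 22 and dashed lines those with 21. The main peak is at 27 nucleotides, except in Igkv4-80, where 24 nucleotides hold 41.9% and 27 hold 24.3%.

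The mean in-frame CDR3 length of the 9 segments was 26.3 ± 0.563 nucleotides in WT and 26.4 ± 0.0840 in rsCBE, a difference of 0.140 (95% interval -0.246 to 0.642, exact permutation p = 0.921). WT replicate 4, with 25.3, was far below the others, and without it the difference was -0.107 (exact p = 0.175). Against the Igkv4 segments numbered below 68, the mean length was shorter in 10 of 10 samples. The difference was -0.894 nucleotides (95% interval -1.08 to -0.749, exact sign-flip p = 0.00195, the smallest that 10 samples can give, adjusted 0.00781). The in-frame share of the 9 differed from that of these segments by -4.56 points (95% interval -8.26 to -0.905, lower in 7 of 10 samples, exact adjusted p = 0.0254). That call was lost without Igkv4-73 (-2.35 points, exact adjusted p 0.102) and without any 1 of WT replicates 2 or 3 or rsCBE replicates 2, 3 or 4 (exact adjusted p 0.0508). It was also lost with each clonotype counted once (-0.641, exact adjusted p 0.658), with each segment weighted equally (-2.53, 0.326) and without Igkv4-86 (-4.71, 0.0625). The other Igkv4 segments numbered 68 and above had a lower mean in-frame share than the 9, at 58.6 ± 6.52% in WT and 50.8 ± 5.54% in rsCBE. Their mean in-frame CDR3 length was 27.3 nucleotides in WT and 27.4 in rsCBE, and neither difference was tested.

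Outside the Igkv4 family, the V segments whose share moved most like the sum of the 9 across the 10 samples were Igkv17-127, Igkv17-121 and Igkv3-1. Their log2 shares, each centred on its own mean, differed from that of the sum by 0.16, 0.18 and 0.21 on average over the 10 samples. The share of Igkv17-127 was 2.16 ± 0.225% in WT and 2.45 ± 0.216% in rsCBE, and that of Igkv3-1 was 0.596 ± 0.0876% and 0.488 ± 0.108%. All shares of a sample come from the same library and total.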

How the data were processed

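Igk transcripts were sequenced as 151-bp read pairs in 10 bone marrow samples, per the labels. The deposited table holds whole-number counts per library, V call, J call and CDR3, with no normalization. The genome build is mm10 per the submitters' processing notes. The caller, its germline set, its filters and what 1 count stands for (a read pair or a molecule) are not given in the sources used here. Of 49079 lines, 49 duplicates were merged. Depth was 3109 to 24083 counts per sample, and a single sample's share carries a Wilson 95% interval (for the 9 segments, 4.96 to 6.60% in WT replicate 4).

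V and V-J counts were tested with edgeR 4.0.16 (quasi-likelihood, library size the total count, filterByExpr, Benjamini-Hochberg over the table), and shares with exact permutation tests. The edgeR test was also run on simulated V counts, with 1 dispersion for all segments and no difference between layouts. That run cannot show how the test behaves where layouts differ, and V-J pairs were not simulated. DESeq2 1.42.0, TMM factors, no filter, each clonotype once, leaving out each sample, the deposition layout and replicate blocks were alternatives. Same-numbered samples deviated together (correlations 0.133 to 0.803 over 93 V segments, 5 pairs), as did differently numbered samples of the same layout (0.230 to 0.812, 8 pairs), and 4 of 10 samples correlated best with their own number. No 2 samples of a genotype agreed within sampling noise (chi-square per degree of freedom at least 2.39).

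All 10 segments are named. Named V-J pairs are those called with or without the layout term, or else the 3 with the smallest p. Named clonotypes are, per segment, the one with the most counts and the in-frame sequence in the most samples. Named V segments outside the family are the 3 nearest in centred log2 share. The segments and these lists were chosen with earlier results of these data known. Germline sequences and positions are from GENCODE M21, where 112 of 114 V names were found.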

Additional observations from a re-analysis of the deposited data

Results flagged for a closer look

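Among 38 groups of 5 samples checked for a single sample apart from the rest, 2 were found, where chance gives about 1 in 20 groups (1.9 here). The in-frame share of the far-side Igkv4 counts in rsCBE replicate 1 was 68.8%, while the 4 other rsCBE samples lay between 60.0 and 61.7%. The mean in-frame CDR3 length in WT replicate 4 was 25.3 nucleotides, while the 4 other WT samples lay between 26.4 and 26.7. That sample had 178 counts of these segments, the fewest of the 10. In it, the segments with 21 or 25 germline bases were both short on average, at 24.2 and 25.6 nucleotides, and the 21-base segments held 41.8% of the in-frame counts, against 18.3 to 37.1% in the other samples.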

How the results depend on the processing

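The counts of called segments and pairs between genotypes were 0 under every alternative run, except for 1 pair in 1-library samples only. With each clonotype counted once, the genotype difference in J5 was 11.4 points (exact adjusted p 0.0317) and that in J1 was -1.72. The genotype difference in the in-frame share was -9.06 (exact p 0.0714), and the J1 difference against other V segments 3.86 (exact p 0.0159). Differences from the J-side Igkv4 segments were then 2.13 for J5, -3.77 for J1 and -0.641 for the in-frame share, none past an adjusted p of 0.05. With joins in frame only they were 4.83 for J5 and -1.18 for J1. In 1-library samples only they were 10.8, -5.46 and -6.57, with -0.751 nucleotides for CDR3 length, and 4 samples cannot give an exact p below 0.125. In 2-part samples only they were 4.86, -4.36, -3.21 and -0.990, the last with an exact adjusted p of 0.125.

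Without clonotypes of 1 count the in-frame genotype difference was -6.23 (exact p 0.0794). With the replicate block it was -6.54 (exact p 0.0625). As 5 pairs cannot give a smaller exact p, no share could pass under the block, which therefore cannot show whether calls between genotypes hold. Alternatives chosen after seeing the data follow. With each segment weighted equally, the genotype differences were -9.67 for J2 and 12.3 for J5 (exact adjusted p 0.0476 each). The genotype difference in J1 was then only -0.775, and the J1 difference against other V segments was 6.25. The J-side differences were 3.94 for J5, -2.28 for J1 and -2.53 for the in-frame share. Without Igkv4-73 the in-frame genotype difference was -5.34 (exact p 0.0556) and the J-side differences were 3.61, -3.12 and -2.35. Without Igkv4-86 the J-side in-frame difference was -4.71, and without Igkv4-80 the J1 difference against other V segments was 4.81 (exact p 0.0476). Without Igkv4-80 the genotype difference in J1 was -2.21, and the J-side differences were 9.97 for J5 and -9.06 for J1.

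Leaving out 1 sample at a time, genotype differences ran from -5.82 to -3.59 for J1, -9.18 to -5.31 for J2, 12.1 to 16.7 for J5, -8.12 to -5.93 in frame and -0.107 to 0.235 nucleotides in CDR3 length, which changed sign without WT replicate 4. J-side differences ran from 6.18 to 9.14 for J5, -5.47 to -3.77 for J1, -5.50 to -3.77 in frame and -0.921 to -0.820 nucleotides in length. Contrasts with all other V segments ran from 0.0340 to 6.16 for J5, 0.472 to 3.82 for J1 and -2.65 to -0.0288 in frame. By layout, 1-library and then 2-part samples, the J1 contrast was 0.517 and 4.06 and the in-frame contrast 4.11 and -4.84. The causes of these changes were not tested. Counts limit the rarer segments, since Igkv4-70 had at most 15 counts in 4 of the 10 samples.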

Other observations

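Igkv4-91 was 1 of 5 V segments with a J1 share under 3% among the 89 with at least 200 counts. The others were Igkv4-92 (1.38%), Igkv17-121 (1.48%), Igkv17-127 (1.99%) and Igkv2-137 (2.27%). In the annotation, Igkv4-91 and Igkv4-92 lie on the reverse strand at 1953 and 1967 kb from J1, and the 3 others on the forward strand at 2685, 2861 and 3166 kb. Igkv4-92, which is not among the 10 listed segments, had 23.6% J4 and an in-frame share of 46.8%, against 33.5% and 72.3% for Igkv4-91. These segments were singled out after their values were seen.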
